A study of Mus musculus with 12 samples.

Results

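Dendritic cell subset genes were followed across mouse lung tumors and normal mouse lung. The genes are Xcr1, Clec9a, Tlr11, Rnase6, Flt3, Batf3, Irf8, Zbtb46, Cd209a and Ccr7, and rows were matched by Ensembl identifier to these 10 symbols. The deposited table has 30399 genes and 9 of the members, while Irf8 was not analysed here. Xcr1, Tlr11 and Rnase6 were chosen by their variation among these same tumors, that is on the measured values, so they are given below without a test, and the other 6 were tested. All 9 passed the filter on low values, a mean normalized count of at least 1 over the 12 samples.

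The study induced lung tumors in mice by CRISPR/Cas9 mutagenesis without a viral vector. Poly-A RNA was sequenced from 5 samples labelled normal lung and 7 labelled tumor. The labels used here give the tissue of each sample and no strain, sex, age, time or targeted gene. Tumor titles carry a number: tumor 1 has 153, tumor 2 has 156, tumors 3 and 4 share 159, and tumors 5, 6 and 7 share 201. What this number stands for is not given, so tumors that share it may not be separate animals, and the titles of tumors 1 and 7 also hold the Spanish word for trachea.

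Recovered depth ran from 11126432 to 17032234 reads per normal lung and from 13093843 to 24217633 per tumor. A count of 3 reads corresponds to a normalized count of at most 4.85 in normal lung and 3.57 in tumors, and values at or under this floor were not ranked. In the tumors, 8 of 8 lung epithelial markers (Sftpc, Ager, Scgb1a1 and others) were lower than in normal lung by limma. Y-linked genes were expressed in 4 normal lungs and in tumor 1, and nearly absent elsewhere, so their presence partly follows the tissue. All samples are bulk tissue, in which fewer cells of a type and less RNA per cell cannot be told apart.

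Dendritic cells take up antigen and present it to T cells. Type 1 conventional dendritic cells develop under Irf8 and Batf3, take up material from dead cells and present it to CD8 T cells. Type 2 conventional dendritic cells, marked in part by Cd209a, mainly prime CD4 T cells, and plasmacytoid dendritic cells make type I interferon. On maturation, dendritic cells switch on Ccr7 and migrate to lymph nodes.

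Xcr1, Clec9a and Tlr11 mark the type 1 subset. Xcr1 is the receptor for the chemokine Xcl1, Clec9a is a lectin receptor for actin exposed on dead cells, and Tlr11 is an endosomal sensor of microbial profilin. Their start site regions are shown because their counts moved together among the tumors, beside that of Cd209a, which did not follow them. Each is 250 bases before to 50 after a gene start from RefSeq, 5′ to 3′ on the gene's strand, on GRCm38.p6, whereas the submitters' processing notes name GRCm39. Capitals mark motifs found by a search of both strands, described after the sequences.
Xcr1, chr9:123861980-123862279, minus strand: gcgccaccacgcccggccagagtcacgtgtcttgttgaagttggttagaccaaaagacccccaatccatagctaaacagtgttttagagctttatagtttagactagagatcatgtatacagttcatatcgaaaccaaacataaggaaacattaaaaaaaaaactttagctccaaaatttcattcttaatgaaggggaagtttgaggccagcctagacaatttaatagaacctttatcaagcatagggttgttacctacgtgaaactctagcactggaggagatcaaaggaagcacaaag
Clec9a, chr6:129408612-129408911, plus strand: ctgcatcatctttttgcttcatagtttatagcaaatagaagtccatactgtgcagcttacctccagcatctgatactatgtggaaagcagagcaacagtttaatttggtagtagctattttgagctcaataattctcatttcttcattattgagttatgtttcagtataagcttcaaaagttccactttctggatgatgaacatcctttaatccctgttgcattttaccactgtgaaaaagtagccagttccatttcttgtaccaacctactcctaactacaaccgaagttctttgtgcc
Tlr11, chr14:50357664-50357963, plus strand: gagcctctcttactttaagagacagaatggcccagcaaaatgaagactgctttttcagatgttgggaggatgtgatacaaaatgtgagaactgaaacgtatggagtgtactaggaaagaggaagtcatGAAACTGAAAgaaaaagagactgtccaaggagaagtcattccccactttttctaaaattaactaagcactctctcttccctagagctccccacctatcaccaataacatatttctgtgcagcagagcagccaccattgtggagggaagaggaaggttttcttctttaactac
Cd209a, chr8:3748935-3749234, minus strand: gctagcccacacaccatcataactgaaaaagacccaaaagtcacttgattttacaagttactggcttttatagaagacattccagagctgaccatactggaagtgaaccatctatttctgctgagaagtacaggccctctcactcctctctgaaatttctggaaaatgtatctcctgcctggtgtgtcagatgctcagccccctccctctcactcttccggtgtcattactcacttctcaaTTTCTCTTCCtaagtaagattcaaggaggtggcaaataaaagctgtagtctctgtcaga

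The motifs were an Ets and Irf composite, the core of the interferon-stimulated response element, TGANTCA, bound by AP-1 factors such as Batf3, and the adjacent and the spaced AP-1 and Irf composites. Of the 9 genes, 8 had a promoter in the table, with 10 start sites in all, and 5 of the 10 held a motif. These 5 include overlapping Rnase6 windows that hold the same site. The share of all promoters holding any of the motifs was not counted. Tlr11 held GAAACTGAAA, a match to the response element core, which 3.44% of 32851 promoters of the same length carry. Cd209a held TTTCTCTTCC, an Ets and Irf composite on the other strand, which 2.72% carry. Zbtb46 held TGACTCATTTC, the adjacent AP-1 and Irf composite on the other strand, which 0.125% of promoters carry and which contains TGANTCA, carried by 7.81%. Both of the nearly coinciding Rnase6 starts held TTTCTCTTTC, the response element core on the other strand. The spaced composite was in 0.119% of promoters and in none of the members' regions, and the Xcr1 and Clec9a windows held none of the letters searched.

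Xcr1 (ENSMUSG00000060509) had 197, 192, 213, 147 and 77.0 normalized counts across normal lungs 1 through 5. In tumors 1 to 4 it had 0, 2.38, 0 and 1.80, all at 2 reads or fewer, and in tumors 5, 6 and 7 it had 112, 508 and 1376. Tumors 1 to 4 lay below every normal lung, tumor 5 lay within the normal range, and tumors 6 and 7 lay above it. The 3 tumors with reads beyond the floor were the 3 that share the number 201.

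Tlr11 (ENSMUSG00000051969) had 77.4, 54.8, 98.5, 43.7 and 34.5 normalized counts across normal lungs 1 through 5. It was listed at 0 in tumors 1, 2 and 3 and had 0.898 in tumor 4, a single read, against 72.8, 422 and 911 in tumors 5, 6 and 7. The highest tumor was 9.24 times the highest normal lung, compared with 6.46 times for Xcr1. Its partner in profilin sensing, Tlr12, followed the same order, with 133 to 229 in normal lung, 0 to 24.1 in tumors 1 to 4, and 138, 553 and 1329 in tumors 5, 6 and 7. Tlr12 did not pass the test (limma adjusted p = 0.258).

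Clec9a (ENSMUSG00000046080) had 1644, 1350, 1350, 1305 and 1866 normalized counts across normal lungs 1 through 5, a narrow range. Tumors 1 through 7 had 4.43, 25.0, 8.92, 19.8, 328, 1671 and 3905. Tumors 1 to 4 were at 0.295% to 1.66% of the normal mean, tumor 5 at 21.8%, tumor 6 inside the normal range and tumor 7 at 260%. The log2 fold change of tumor against normal lung was -3.99 (SE 1.47, limma adjusted p = 0.0304), and 5 of 7 tumors lay below every normal lung. On the arithmetic scale the tumor mean was 852 ± 1476 (SD, n = 7) against 1503 ± 244 (SD, n = 5). The call was lost with edgeR (log2 fold change -0.75, adjusted p = 0.640) and with DESeq2 (-0.82, adjusted p = 0.555), and in 9 of 12 limma fits that left out a sample, where adjusted p was 0.0511 to 0.0593. The annotated span of Clec9a overlaps that of Clec1b on the same strand, so their reads could be shared.

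Rnase6 (ENSMUSG00000021880) encodes a secreted antimicrobial ribonuclease made by phagocytes and dendritic cells. It had 478, 857, 969, 719 and 343 normalized counts across normal lungs 1 through 5, and 0.633, 0, 0, 1.80, 72.0, 330 and 1228 in tumors 1 through 7. Tumors 1 to 4 again had 2 reads or fewer. Tumors 5 and 6 stayed below every normal lung, and only tumor 7 was above. Rnase6 therefore shared the order of Xcr1 and Tlr11 over tumors 5 to 7 but not their place relative to normal lung.

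**Figure D1:**
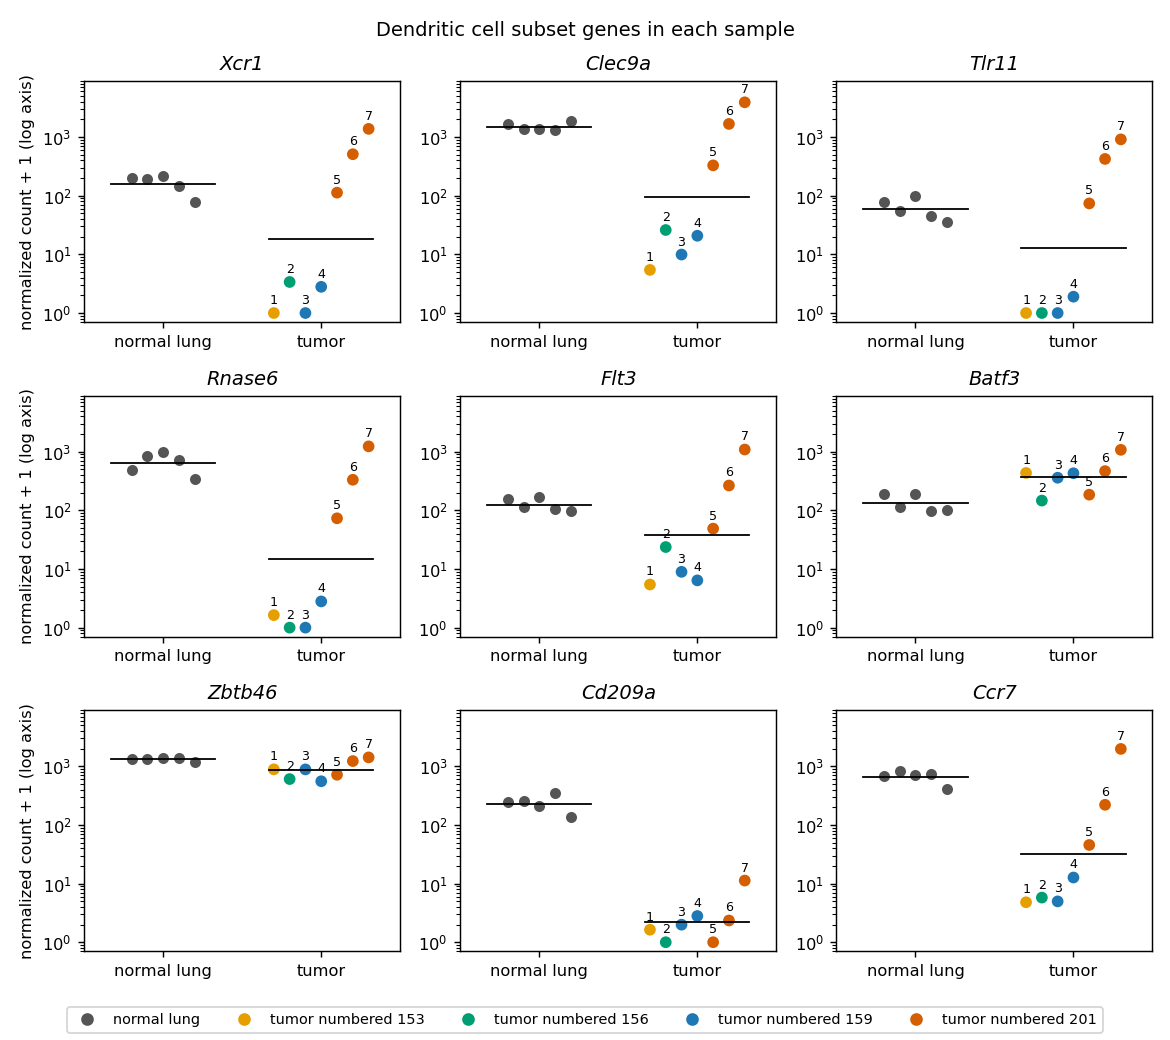
Normalized count plus 1 (log axis) of the 9 members in each of 5 normal lungs (grey) and 7 tumors (colored by title number and labelled 1 to 7), with lines at the mean of log2(value + 1). Tumors 1 to 4 sit at 0 to 2.38 for Xcr1 while tumors 5, 6 and 7 sit at 112 to 1376, and Cd209a is low in all 7 tumors.

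Flt3 (ENSMUSG00000042817), the receptor tyrosine kinase whose ligand drives dendritic cell development, had 157, 111, 170, 103 and 96.6 normalized counts across normal lungs 1 through 5. Tumors 1 through 7 had 4.43, 22.6, 7.93, 5.39, 47.7, 263 and 1085, so 5 tumors were below and 2 above every normal lung. Its log2 fold change of -1.74 (SE 1.15) did not pass the test (limma adjusted p = 0.205). The sign was positive with edgeR (0.78, adjusted p = 0.601) and DESeq2 (0.69, adjusted p = 0.590). The decrease passed in limma when tumors sharing a title number were averaged (-2.51, adjusted p = 0.0364), without the trachea-titled tumors 1 and 7 (-2.16, adjusted p = 0.0367), without tumors 5, 6 and 7 (-3.76, adjusted p = 3.34e-05) and without tumor 7 alone (-2.55, adjusted p = 0.0183). The antisense gene Gm26597 overlaps Flt3, and as use of strand is not given, their reads cannot be told apart. Gm26597 itself was listed at a mean of 0 in normal lung and 0.756 in tumors, beside 127 and 205 for Flt3. The ligand gene Flt3l was barely detected, at no more than 6.45 in any sample.

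Batf3 (ENSMUSG00000026630), the AP-1 family factor required for type 1 dendritic cells, went the other way. It had 186, 111, 186, 97.3 and 101 normalized counts across normal lungs 1 through 5, and 432, 145, 358, 427, 184, 464 and 1072 in tumors 1 through 7. No tumor was below the normal range, 2 were inside it and 5 were above. For 20.1% of all genes tested every tumor was above every normal lung, which was not so for Batf3. Batf3 rose in tumors by 1.48 on the log2 scale (SE 0.42, limma adjusted p = 0.00754), and edgeR (1.72, adjusted p = 0.00762) and DESeq2 (1.70, adjusted p = 4.41e-04) also called it higher. In tumors 1, 3 and 4, Batf3 was 2.63 to 3.17 times the normal mean while Clec9a was at 0.295% to 1.31% of its own. After adjustment for the Y-linked mean the rise of 1.39 no longer passed (adjusted p = 0.0597).

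The relative Batf fell by 3.74 on the log2 scale (limma adjusted p = 3.40e-04), and Batf2 fell by 1.47 (adjusted p = 3.75e-04). Batf had 201 to 373 normalized counts in normal lung and 7.93 to 181 in tumors. Spi1, the Ets factor PU.1 of myeloid cells, fell by 2.85 (adjusted p = 0.00790), and it was 3567 in tumor 7 against 1473 to 3133 in normal lung. Nfil3, which acts upstream in the type 1 lineage, had a log2 fold change of 0.72 (adjusted p = 0.0579), and Id2, an inhibitor of E proteins, one of -0.32 (adjusted p = 0.719).

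Zbtb46 (ENSMUSG00000027583), a zinc finger factor of conventional dendritic cells that is also made by endothelium, varied least. It had 1341, 1312, 1357, 1405 and 1178 normalized counts across normal lungs 1 through 5, and 884, 603, 881, 553, 714, 1223 and 1413 in tumors 1 through 7. It fell by 0.63 on the log2 scale (SE 0.22, limma adjusted p = 0.0238), with 5 tumors below, 1 inside and 1 just above the normal range. The call was lost with edgeR (-0.54, adjusted p = 0.0705), with samples scaled to equal totals (-0.43, adjusted p = 0.115), and without normal lung 4 (-0.61, adjusted p = 0.0506). In limma it was also lost with the Y-linked covariate (-0.66, adjusted p = 0.0850) and without the tumors numbered 159 (-0.52, adjusted p = 0.0704). Endothelial markers fell further: 8 of 8 were lower in tumor, with a median log2 fold change of -4.78. Their summed level was 67491 to 77976 normalized counts in normal lung and 2591 to 7484 in tumors, with none of the markers at 0. The sum was 3006 and 6627 in tumors 6 and 7, where Zbtb46 was inside or just above its normal range. It was 7484 in tumor 1, where Zbtb46 was 884. The part of endothelium in the level of Zbtb46 was not tested.

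Cd209a (ENSMUSG00000031494), a lectin related to DC-SIGN, was low in every tumor. It had 241, 251, 208, 344 and 135 normalized counts across normal lungs 1 through 5. In tumors 1 through 7 it had 0.633, 0, 0.991, 1.80, 0, 1.35 and 10.2, that is 2 reads or fewer in tumors 1 to 6 and 16 reads in tumor 7. The groups did not overlap, which was so, with tumors below, for 18.4% of all genes tested. Cd209a fell by 6.69 on the log2 scale (SE 0.55, limma adjusted p = 2.67e-07), with edgeR and DESeq2 log2 fold changes of -6.56 and -6.69. Tumor 7, where Xcr1 was at 832% and Clec9a at 260% of the normal mean, held Cd209a at 4.35% of it.

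Ccr7 (ENSMUSG00000037944), the receptor that guides mature dendritic cells and naive T cells to lymph nodes, had 686, 825, 715, 732 and 407 normalized counts across normal lungs 1 through 5. Tumors 1 through 7 had 3.80, 4.77, 3.97, 11.7, 44.5, 219 and 1970, so 6 tumors were below every normal lung and tumor 7 was above. It fell by 4.36 on the log2 scale (SE 1.31, limma adjusted p = 0.0106). DESeq2 kept the call (-2.88, adjusted p = 0.00582) and edgeR did not (-0.96, adjusted p = 0.557). The log2 ratio of the arithmetic means was -1.06, near the edgeR value. DESeq2 ran with its default handling of outlying counts, and whether this set its larger fall of Ccr7 was not tested. Markers of T and NK cells moved with Ccr7, with 9 of 10 lower in tumor. Their summed level was 3380 to 4690 in normal lung, 223 to 885 in tumors 1 to 6 and 3264 in tumor 7. Cd3e was at 0 in tumors 1, 2 and 3 and at 248 in tumor 7, and the part of T cells in Ccr7 was not tested. B cells also express Ccr7, and their antigen receptor chain Cd79b was called lower in tumor, where it had 0 to 175 normalized counts beside 640 to 1872 for the normal lungs. Their part in Ccr7 was not tested either.

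Of the 6 members tested, limma called 4 lower in tumor (Clec9a, Zbtb46, Cd209a and Ccr7), 1 higher (Batf3) and left Flt3 uncalled. Over all 23674 genes tested, 30.1% were called lower and 31.4% higher at an adjusted p under 0.05. The median log2 fold change of the 6 members was -2.87 in limma, against 0.04 for all genes. It was -0.65 in edgeR and -0.69 in DESeq2, against 0.12 and 0.10 for all genes. edgeR on the recovered reads called 1 of the 6 lower and 1 higher, where it called 26.1% and 31.3% of all genes, and DESeq2 called 3 lower and 1 higher, where it called 28.5% and 32.2%. For the members noted for their variation, the limma difference was -3.08 for Xcr1, -2.20 for Tlr11 and -5.44 for Rnase6, while the edgeR values were 0.87, 1.78 and -1.44, each given as a description.

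**Figure D2:**
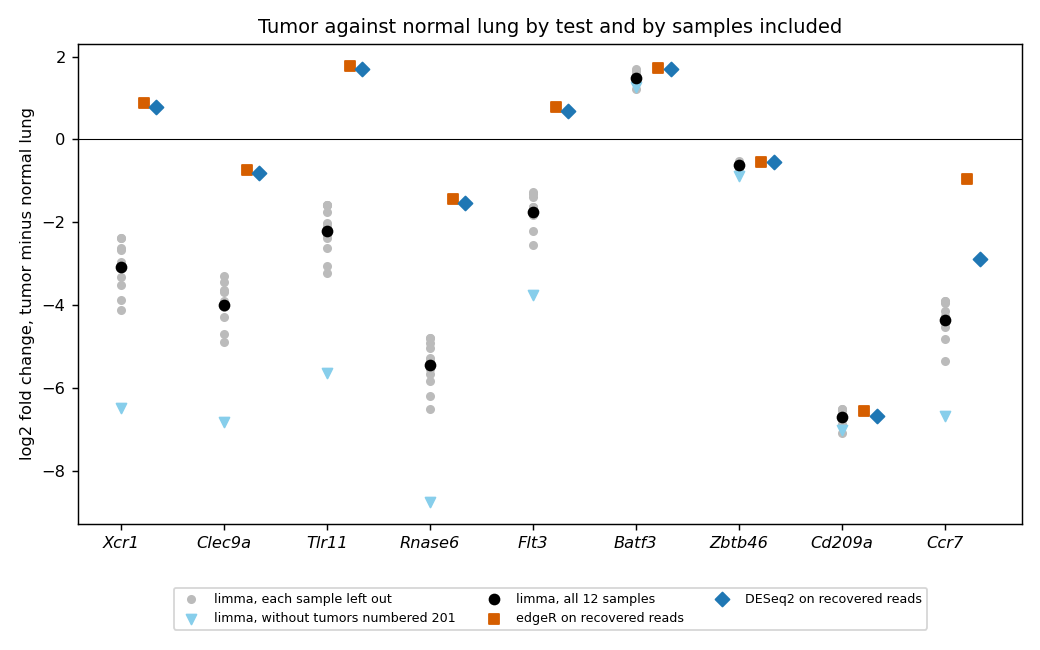
Log2 fold change of tumor minus normal lung for the 9 members, by limma on all 12 samples (black), limma with each sample left out (grey), limma without tumors 5, 6 and 7 (triangles), edgeR (squares) and DESeq2 (diamonds). Cd209a stays between -8 and -6 and Batf3 above 1 in every fit plotted, while Xcr1, Tlr11 and Flt3 are below 0 in limma and above 0 in both count tests.

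Tumors 5, 6 and 7 were compared by the proportion of each member to Clec9a, as a description. Relative to Clec9a in the same sample, the Xcr1 count was 34.1%, 30.4% and 35.2% in tumors 5, 6 and 7, although their Clec9a counts spanned an 11.9-fold range. The 5 normal lungs had 4.13% to 15.8%, all below these tumors. For Tlr11 the proportion was 22.2%, 25.3% and 23.3% in tumors 5, 6 and 7 and 1.85% to 7.30% in normal lung, again without overlap.

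The proportion of Flt3 to Clec9a was 14.6% to 27.8% in the same tumors and 5.18% to 12.6% in normal lung. Rnase6 did not separate, at 19.8% to 31.4% in these tumors and 18.4% to 71.8% in normal lung. Ccr7 was lower in tumors 5 and 6 (13.6% and 13.1%) than in any normal lung (21.8% to 61.1%), and was 50.4% in tumor 7. Batf3 was 27.5% to 56.0% in the 3 tumors and 5.42% to 13.8% in normal lung. Zbtb46 varied most among the 3 tumors, from 36.2% to 218%, and spanned 63.2% to 108% in normal lung. The highest proportion among the 3 tumors was 1.16 times the lowest for Xcr1 and 1.14 times for Tlr11, both chosen for their variation, against 1.59 to 6.03 times for Rnase6, Flt3, Batf3, Ccr7 and Zbtb46. These proportions compare samples and not genes, since counts are not scaled by length, and the 3 tumors share a title number.

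**Figure D3:**
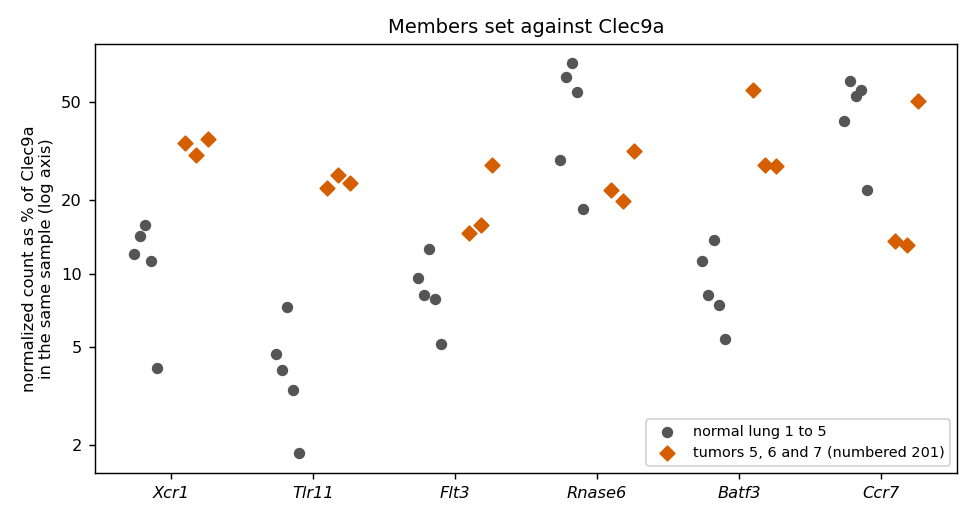
Normalized count of 6 members as a percentage of Clec9a in the same sample (log axis), for 5 normal lungs (grey) and tumors 5, 6 and 7 (diamonds). Xcr1 sits at 30.4% to 35.2% in the 3 tumors and at 4.13% to 15.8% in normal lung, and Rnase6 overlaps.

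General leukocyte genes also differed among the tumors. All 8 pan-leukocyte markers (Ptprc, Coro1a, Laptm5 and others) were lower in tumor by limma. Their summed level was 10640 to 18158 in normal lung, 469 to 1894 in tumors 1 to 5, 6132 in tumor 6 and 24601 in tumor 7. Set against the mean log2 level of these markers, Xcr1 was -3.75 to -2.82 in normal lung and -0.61, -0.28 and -0.83 in tumors 5, 6 and 7. Tlr11 was -4.97 to -4.16 in normal lung and -1.22, -0.55 and -1.43 in the same tumors. Xcr1 and Tlr11 were chosen for their variation among these tumors, so these values are a description only. Rnase6, at -1.24, -0.90 and -0.99, lay within the normal range of -1.61 to -0.85.

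Cd209a relative to leukocyte genes was -3.12 to -2.03 in normal lung and -7.43, -8.04 and -7.77 in tumors 5, 6 and 7. These 3 tumor values rest on 0, 2 and 16 Cd209a reads, so those of tumors 5 and 6 mainly restate the leukocyte level. Batf3 was above the normal range of -3.84 to -2.90 in all 7 tumors, from -1.19 in tumor 7 to 4.57 in tumor 3. Zbtb46 was above its own normal range on this scale in 6 tumors and below it in 1. Flt3 was above its range in 5 tumors, within it in 1 and below it in 1. The mean log2 level of the leukocyte markers was 3.91 in tumor 3 and 11.3 in tumor 7, and a lower mean raises every value on this scale. The part of the low leukocyte level in the Batf3 values was not tested. In tumors 1 to 4, Xcr1, Clec9a and Rnase6 were below their normal ranges on this scale as well, which for Xcr1 and Rnase6 rests on 2 reads or fewer. Tlr11 was below its normal range in tumors 1, 2 and 4 but above it in tumor 3, at -3.91 with 0 reads. Tumor 7 also stood apart in cardiac muscle markers, with a summed level of 33146 against 129 to 3528 in the other samples, and the part of other tissue in its values was not tested.

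**Figure D4:**
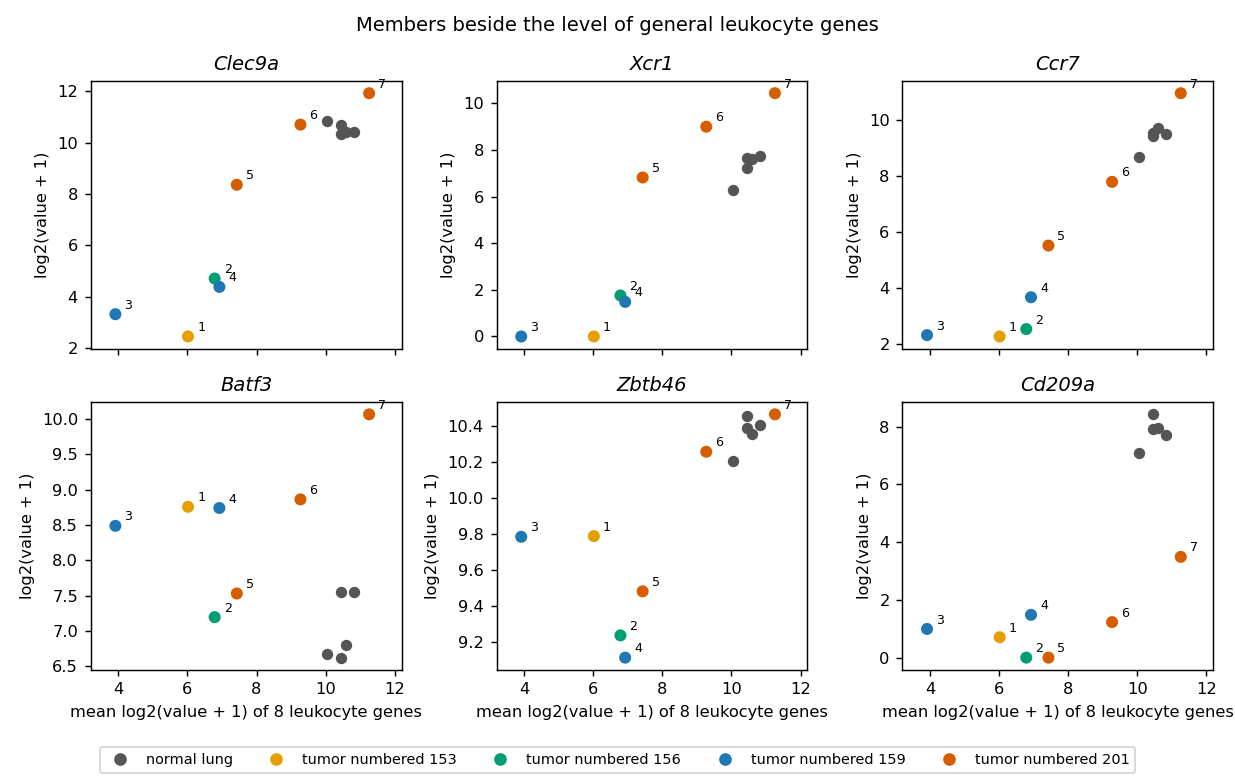
Log2(value + 1) of 6 members (vertical axis) against the mean log2(value + 1) of 8 leukocyte markers (horizontal axis) in 5 normal lungs (grey) and 7 tumors (colored by title number). Tumors 5, 6 and 7 lie above normal lung for Xcr1 relative to the leukocyte level, and Cd209a is at or below 3.49 in the tumors.

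Among 12 other genes listed for type 1 dendritic cells, 3 were called lower (Cadm1, Tlr3 and Cxcr3), 2 higher (Itgae and Sept3) and 7 neither, with a median log2 fold change of -1.51. In tumor 7, 11 of the 12 were above every normal lung, against 38.1% of all genes tested, and in tumors 1 to 4, 7 to 9 of the 12 were below, against 37.0% to 38.4% of all genes. Wdfy4, a protein needed for cross-presentation, had 676 to 1363 normalized counts in normal lung, 4.96 to 47.6 in tumors 1 to 4, and 607, 2824 and 8203 in tumors 5, 6 and 7. Tlr3, a sensor of double-stranded RNA, had 610 to 743 in normal lung, 28.6 to 41.3 in tumors 1 to 4, and 180, 678 and 1766 in tumors 5, 6 and 7. Itgae, the CD103 integrin chain, had 56.4 to 190 in normal lung and 127 to 1479 in tumors, and rose by 1.65 (limma adjusted p = 0.0206). Sept3, a septin abundant in neurons, had 4153 to 7961 in all tumors.

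Among 11 other genes listed for type 2 dendritic cells, 9 were called lower and 1 higher, with a median of -2.89. The lower ones included the dendritic integrin chain Itgax, Irf4, the lectin Mgl2 and Cd209c and Cd209d, neighbors of Cd209a by family. Cd209c had 14.1 to 54.2 normalized counts in normal lung and 0 to 7.69 in tumors. Mgl2 was 405 to 753 in normal lung and 691 in tumor 7, so the low Cd209a of that tumor was not matched by every gene of the list. In tumor 7, 3 of the 11 were above every normal lung and 4 below, against 38.1% and 31.1% of all genes tested. Itgax was 1840 in tumor 7 against 689 to 1633 in normal lung. Clec10a was not called (limma adjusted p = 0.360), and was 390 in tumor 7 against 43.0 to 105 in normal lung. The higher gene, Dtx1, is a regulator of Notch signaling and had 1171 to 4288 in tumors.

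Among 11 plasmacytoid genes, 8 were called lower and 2 higher, with a median of -2.64. Siglech had 95.9 to 197 normalized counts in normal lung, 0 to 16.2 in tumors 1 to 6 and 136 in tumor 7. Spib, a transcription factor of plasmacytoid and B cells, had 351 to 1347 in normal lung and 308 in tumor 7. The higher genes were Tcf4, an E protein expressed in many cell types, and Pacsin1, an adaptor of endocytosis abundant in neurons, at 1362 to 2307 in tumors.

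Among 12 genes of mature migratory dendritic cells, 5 were called lower (Ccl22, Relb, Cd40, Cd83 and Il15ra) and 2 higher (Fscn1 and Cacnb3), with a median of -1.70. Il12b, the p40 subunit of interleukin 12, had 11.8 to 29.6 normalized counts in normal lung, was listed at 0 in tumors 1 to 4, and had 2.43, 49.9 and 296 in tumors 5, 6 and 7. Cd86, a costimulatory ligand, had 217 to 415 in normal lung and 2958 in tumor 7. Fscn1 and Cacnb3, an actin bundler and a calcium channel subunit that neurons also express, were higher in tumors 1 to 4 as well, where Ccr7 was at 11.7 or less.

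**Figure D5:**
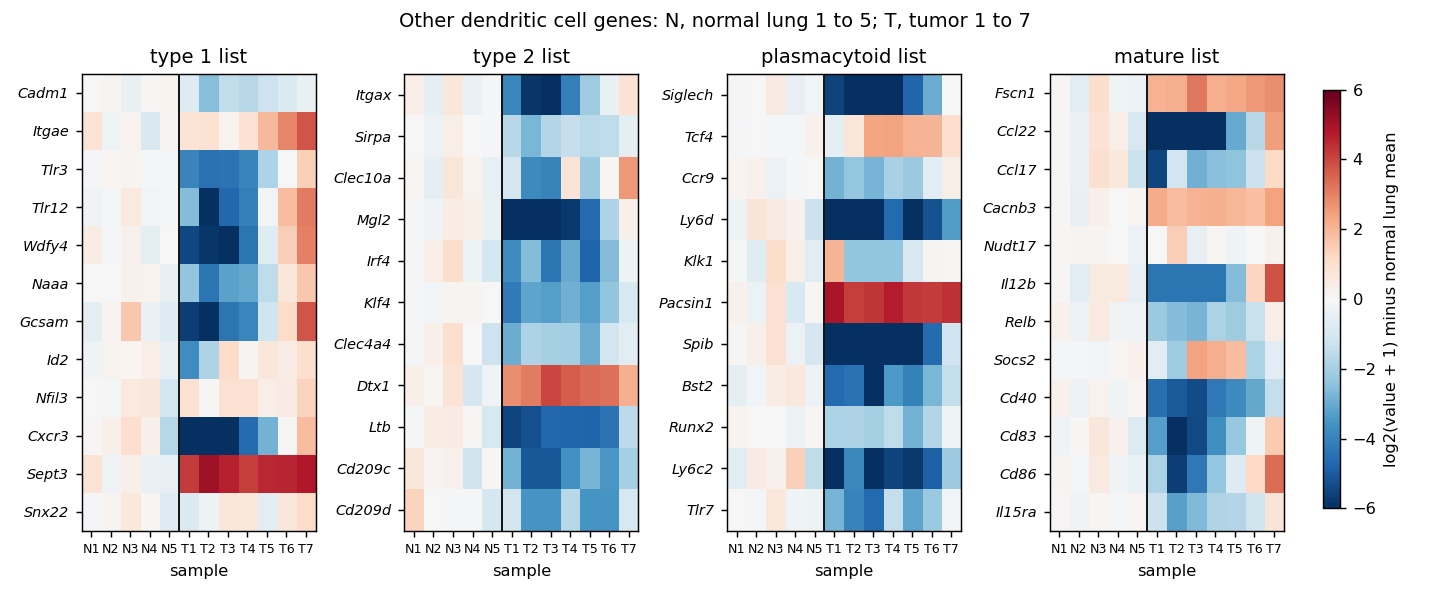
Log2(value + 1) minus the normal lung mean for genes of 4 dendritic cell lists (rows) in 5 normal lungs (N1 to N5) and 7 tumors (T1 to T7), with blue for lower and red for higher values and the color scale ending at -6 and 6. In the type 1 list 6 of 12 genes (Tlr3, Tlr12, Wdfy4, Naaa, Gcsam and Cxcr3) are below the normal mean in T1 to T4 and above it in T7, while Sept3, Dtx1 and Pacsin1 are red in all tumors.

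Among 9 ligands and partners of the members, 8 were called lower and Flt3l was not called, with a median log2 fold change of -2.44. Csf2, which encodes GM-CSF, had 11.5 to 32.4 normalized counts in normal lung and 0.809 in tumor 5, a single read, with the other 6 tumors listed at 0. Its receptor chains Csf2ra and Csf2rb fell by 1.62 and 2.44 on the log2 scale (limma adjusted p = 0.0253 and 0.0272), and tumor 7 held them at 3018 and 4041, above every normal lung. Unc93b1, which carries endosomal Toll-like receptors to their compartment, fell by 1.65 (adjusted p = 0.0462), from 2098 to 4007 in normal lung to 161 to 2016 in tumors 1 to 6, and was 6442 in tumor 7. The Xcr1 ligand Xcl1 and the Ccr7 ligands Ccl19 and Ccl21a were not analysed here.

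Genes closest in pattern to Xcr1, Cd209a and Ccr7 were sought among the genes with a mean normalized count of at least 20, by the root mean square difference of centered log2 values over the 12 samples. The 6 closest to Xcr1 were Tlr11 (0.63), Wdfy4 (0.74), Gpr141b (0.76), Btla (0.80), Clec9a (0.82) and Cyp8b1 (0.84). Xcr1 and Tlr11 were both chosen for their variation among these tumors, so the place of Tlr11 partly restates that choice. Values at or under the floor of 3 reads entered these distances, among them those of Xcr1 in tumors 1 to 4. Gpr141b, an orphan receptor, had 46.0 to 124 normalized counts in normal lung, 0 to 1.90 in tumors 1 to 4, and 78.5, 340 and 849 in tumors 5, 6 and 7. Btla, an inhibitory receptor of lymphocytes and dendritic cells, had 188, 909 and 2213 in the same tumors against 550 to 1241 in normal lung.

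The 6 closest to Cd209a were Tnfsf10 (0.56), Thbd (0.61), Slc16a9 (0.70), Prkag3 (0.71), Rab38 (0.72) and Gm13111 (0.73), all low in every tumor. Tnfsf10, the death ligand TRAIL, reached 20.8 to 226 normalized counts in the 7 tumors, while normal lungs held 4667 to 7434. The 6 closest to Ccr7 were Icos (0.49), Treml4 (0.53), Cytip (0.55), Mgl2 (0.57), Siglecg (0.58) and B3gnt5 (0.59). Icos, a costimulatory receptor of T cells, had 72.4 to 247 in normal lung, 0 to 31.7 in tumors 1 to 6 and 218 in tumor 7.

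Within each group the members spread unequally. Xcr1, Tlr11 and Rnase6 were chosen for this spread, so their SDs restate the choice. The SD of log2 values over the tumors was 4.43 for Tlr11, 4.42 for Xcr1, 4.32 for Rnase6, 3.76 for Clec9a, 3.32 for Ccr7 and 2.91 for Flt3, beside a median of 0.63 for all genes tested. It was 1.19 for Cd209a, 0.95 for Batf3 and 0.50 for Zbtb46. Over the normal lungs the members' SD was 0.10 to 0.62, beside a median of 0.35, and normal lung 5 was the lowest for 7 of the 9. Tumor 7 was the highest of all 12 samples for 8 of the 9 members, Cd209a being the exception.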

How the data were processed

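Poly-A libraries were sequenced in paired-end mode (NovaSeq), per the labels' protocols. The submitters' processing notes name featureCounts, DESeq2 and GRCm39, with no roles or versions, and the aligner, annotation and use of strand are not given in the sources used here. The authors deposited a normalized count signal that is not scaled by gene length. In each of the 12 columns 100% of values were whole multiples of 1 step (tolerance 0.01), and the reciprocal of the step matched a median-of-ratios size factor (0.619 to 1.58), so reads were recovered by division. Gene symbols from GENCODE M21 named 29982 of the 30399 identifiers.

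The test used log2(value + 1) of the 23674 genes whose mean reached 1, in limma 3.58.1 (R 4.3.3) with a mean-variance trend and Benjamini-Hochberg adjustment over all genes, and called at an adjusted p under 0.05. The pseudocount of 1 understates changes of low genes. The count tests, edgeR 4.0.16 with TMM factors and DESeq2 1.42.0, were run on the recovered reads as alternatives. Reads are not independent molecules, so the floors of 3 reads cover counting error only. p-values measure the spread between these samples, and nothing in the labels says that each is a separate animal.

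The members, lists, motifs and tests were chosen with earlier results of these data known. Genes named are the members, genes of the lists, and the 6 closest in pattern to Xcr1, Cd209a and Ccr7. Lists are described by counts and medians. All 31 within-group library pairs differed beyond sampling noise (chi-square divided by its degrees of freedom 19.8 or more). The limma step was tested on simulated counts with independent samples and the same dispersion in both groups. That test does not cover the unequal spread of the members in tumors and normal lung, nor tumors that share a title number. Alternatives covered the pseudocount, low-value filters, scaling, the count tests, tumors that share a title number, the trachea-titled tumors, a Y-linked covariate and each sample left out. Leaving out the tumors numbered 159 or 201 was added after seeing the data. Other steps used Python 3.11.15 with numpy 2.4.6 and pandas 2.3.3.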

Additional observations from a re-analysis of the deposited data

Results flagged for a closer look

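In 18 sets of values (9 genes in each of 2 tissue groups), 2 had a sample far from the rest by Dixon's ratio at the 95% level, where chance flags about 1 set in 20. Tumor 7 had a Cd209a log2 value of 3.49, against 1.48 or less in the other tumors, a value that rests on 16 reads. Normal lung 5 had a Ccr7 log2 value of 8.67, against 9.42 to 9.69 in the other normal lungs.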

How the results depend on the processing

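Cd209a passed in all 25 alternative fits (log2 fold change -8.12 to -6.51) and Batf3 in 24 (1.12 to 1.72), with the Y-linked covariate as the exception. Ccr7 passed in 24, edgeR being the exception. Clec9a passed in 13 of 25 (-6.83 to -0.75) and Zbtb46 in 20 (-0.88 to -0.43). Flt3 passed in 4, and its direction turned with edgeR (0.78) and DESeq2 (0.69). The differences of Xcr1 and Tlr11 were positive in 2 of 25 fits, the count tests. The tested members called lower numbered 4 at first, 1 with edgeR, 2 without the tumors numbered 159, and 2 to 5 when a sample was left out. Those called higher numbered 1 at first and 0 with the Y-linked covariate. Over all genes, 7124 of 23674 were called lower at first and 6186 with edgeR. The number was 6450 without the tumors numbered 159, and 6526 to 7574 when a sample was left out, with the low-value filter applied anew. Over all genes, 7430 were called higher at first and 5874 with the Y-linked covariate. Without tumors 5, 6 and 7, Flt3 (-3.76) and Clec9a (-6.83) passed. Apart from the construction of each alternative, the cause was not tested. Equal totals moved the median log2 fold change of all genes from 0.04 to 0.24. No paired analysis was possible because the labels give normal lungs and tumors no shared replicate numbers. Depth limits the ranking of Xcr1, Tlr11, Rnase6 and Cd209a at 3 reads or fewer.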

Other observations

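Cd8a in mice marks cytotoxic T cells and also lymphoid type 1 dendritic cells. It was set beside Cd3e, a CD3 chain of the T cell receptor complex, after the Cd8a values were seen. In normal lungs 1 to 5 the Cd8a count was 1.25 to 1.93 times that of Cd3e. In tumors 5, 6 and 7 it was 20.7, 30.2 and 5.18 times, with Cd8a at 100.3, 489 and 1284 normalized counts and Cd3e at 4.85, 16.2 and 248. Cd3e had 3 reads or fewer in tumors 1 to 4, where no ratio is given. A single read was worth 0.809 normalized counts in tumor 5 and 0.674 in tumor 6. The tumor 5 ratio in particular therefore rests on few Cd3e reads.

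Macrophage and monocyte markers did not move as one in the tumors. The complement genes C1qa and C1qb were not called by limma (log2 fold changes -0.76 and -0.36, adjusted p = 0.366 and 0.679) and stood at 7788 and 6805 in tumor 7. Lyz2 fell by 6.64 on the log2 scale, to 134 to 5613 normalized counts, and Ccr2 fell by 5.86, to 3.57 to 266. Neutrophil markers summed to 4592 normalized counts in tumor 2 and to 6.94 to 359 in the other tumors, against 2258 to 5778 in normal lung.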
